A study of Mus musculus with 20 samples.

Results

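Matrix metalloproteinases are zinc enzymes that cut collagens, elastin and other proteins of the extracellular matrix, and their transcripts were examined here in 2 macrophage subsets of the fibrotic mouse liver. The genes were Mmp8, Mmp9, Mmp12, Mmp13, Mmp14 and Mmp19, the inhibitor genes Timp1 and Timp2, the sheddase gene Adam17 and the urokinase receptor gene Plaur, taken by symbol from the 59311 genes of the normalized table. All 10 were found, and all 10 were among the 17248 genes whose mean normalized count reached 10 in at least 1 group and which were therefore tested. Mmp9 and Mmp13 passed this filter through their Ly6Clo libraries.

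The libraries came from 10 male C57BL/6 mice, 10 to 12 weeks old, whose livers had been made fibrotic by 0.6 ml/kg carbon tetrachloride (CCl4), injected 2 times a week for 4 weeks. Mice 16 to 20 were exposed to Ac-6-FP (acetyl-6-formylpterin, 0.25 mg/kg), a ligand of the antigen-presenting molecule MR1 that keeps mucosal-associated invariant T (MAIT) cells inactive, and mice 11 to 15 to its vehicle (1% DMSO). Dosing began 2 h before the last CCl4 injection and went on daily until cells were collected 2 days after it. From each liver, Ly6Chi and Ly6Clo monocyte-derived macrophages (MoMac), positive for CD11b and F4/80 and negative for Ly6G, CD11c and CD3, were sorted, which gave 20 libraries in 4 groups of 5. Every group had received CCl4, so that no value from an uninjured liver enters the comparisons. As each library is a sorted population, fewer cells of a type and less RNA per cell cannot be told apart.

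Values are normalized counts, reads counted on a gene divided by a size factor of the library, and are not divided by gene length. Each library held 5693049 to 18682437 reads on genes, and the limit that a count of 0 allows was taken as 3 reads (1.87 to 6.26 normalized counts, depending on the library). The number of genes detected ran from 11096 to 15766 in Ac-6-FP libraries and from 5343 to 15723 in vehicle libraries. The Ly6Clo vehicle library of mouse 13 stood apart, with 5343 genes detected and 2765 of the 6652 genes with a median of at least 100 listed at 0. In this library 7 of the 10 genes examined here were at 0, against 0 to 4 in the other Ly6Clo libraries, and results that rest on it are given with and without it. The Ly6Chi vehicle library of mouse 14 also had 7 of the 10 at 0, against 3 to 5 in the other Ly6Chi libraries. The sort was reflected in Ly6c2, a gene of the Ly6C antigen, at 4930 to 10012 normalized counts in Ly6Chi and 284 to 1014 in Ly6Clo MoMac. Of the 8 monocyte and macrophage markers in the table, 2 had an adjusted p-value under 0.05 (limma), Ly6c2 and Ccr2, both lower in Ly6Clo. The sum of all 8 ran from 46168 to 74721 in Ly6Chi and from 21647 (mouse 13) to 78434 in Ly6Clo libraries.

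In the liver, the balance between metalloproteinases and their tissue inhibitors, the TIMPs, is known to govern how scar collagen is laid down and removed, and macrophages are a known source of both. Mmp8 and Mmp13 are collagenases, which make the first cut in fibrillar collagen. Mmp9 is a gelatinase that degrades denatured collagen, Mmp12 is the macrophage elastase, and Mmp14 encodes a metalloproteinase anchored in the membrane, which activates pro-MMP2 together with Timp2. Mmp19 is a secreted member of the family with basement membrane substrates. Adam17 releases TNF and other proteins from the cell surface, and Plaur binds urokinase, which turns plasminogen into plasmin at the cell surface.

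Mmp8, Mmp12 and Mmp13 lie in the metalloproteinase cluster of mouse chromosome 9, at chr9:7558429-7568486, chr9:7344396-7369499 and chr9:7272514-7283333 in the mm10 build of the deposited table. The other genes lie apart from it, Mmp9 at chr2:164948219-164955849, Mmp14 at chr14:54431598-54445364, Mmp19 at chr10:128790909-128800827, Timp1 at chrX:20870166-20874735, Timp2 at chr11:118301065-118355506, Adam17 at chr12:21323509-21373632 and Plaur at chr7:24462428-24475968. Each interval spans exons and introns of the whole gene. Exons of Adam17 overlap those of Iah1 on the opposite strand (mean of 718 normalized counts over 20 libraries), exons of Mmp19 those of Tmem198b (mean of 36.8), and exons of Mmp12 those of Mmp1b, which was at 0 throughout. Whether strand was used in counting is not given in the sources used here, so the Adam17 and Mmp19 values may hold reads of their neighbours.

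Metalloproteinase promoters are known targets of AP-1, the dimer of Fos and Jun proteins. RefSeq promoter windows of 300 bases (250 before to 50 after the start site, GRCm38.p6) were found for 8 of the 10 genes, with 2 start sites for Mmp12. The AP-1 sequence TGAGTCA, sought on both strands, was present in windows of 3 genes, Mmp12 (1 of its 2 windows, that of the start site inside the gene), Mmp13 and Plaur, and in 5.20% of 32851 windows (5.95% of 27025 genes). The stretches from 100 bases before to 50 bases after the start site are shown for these 3 genes and for Mmp8 and Mmp14, whose windows lack it, with the AP-1 sequence in capitals (TGACTCA is the same sequence on the other strand). In them, the AP-1 sequence begins 44 (Mmp12), 35 (Mmp13) and 69 (Plaur) bases before the start site. A match describes the letters of the window and no binding.
Mmp12 (start site inside the gene), chr9:7347274-7347423, plus strand: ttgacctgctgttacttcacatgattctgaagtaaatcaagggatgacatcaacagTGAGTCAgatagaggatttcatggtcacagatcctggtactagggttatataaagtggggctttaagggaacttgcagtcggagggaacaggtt
Mmp13, chr9:7272414-7272563, plus strand: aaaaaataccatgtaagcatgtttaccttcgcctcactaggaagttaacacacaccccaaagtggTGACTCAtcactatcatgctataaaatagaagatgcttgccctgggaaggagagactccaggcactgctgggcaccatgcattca
Plaur, chr7:24462383-24462532, plus strand: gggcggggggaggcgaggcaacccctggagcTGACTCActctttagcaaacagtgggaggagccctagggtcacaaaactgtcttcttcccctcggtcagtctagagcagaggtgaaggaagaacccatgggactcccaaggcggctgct
Mmp8, chr9:7558329-7558478, plus strand: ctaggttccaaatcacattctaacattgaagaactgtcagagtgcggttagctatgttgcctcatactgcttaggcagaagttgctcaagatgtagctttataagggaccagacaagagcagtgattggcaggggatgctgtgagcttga
Mmp14, chr14:54431498-54431647, plus strand: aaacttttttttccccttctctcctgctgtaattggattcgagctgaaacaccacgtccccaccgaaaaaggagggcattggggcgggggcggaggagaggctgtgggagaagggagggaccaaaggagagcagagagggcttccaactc

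The first question was how the subsets of the same liver differ. Mmp8 and Mmp19 were lower and Mmp9 and Mmp14 higher in Ly6Clo than in Ly6Chi MoMac, so that 4 of the 10 genes had an adjusted p-value under 0.05 (limma on log2(normalized count + 1) with the mouse as a block, n = 10 mice), against 900 of the 17248 genes tested, or 5.22% (3.41% higher and 1.81% lower in Ly6Clo MoMac). Of these 4, Mmp9 had reached the filter on low values through its Ly6Clo libraries, so that its call and direction are not independent of the filter. The other 6 genes did not pass this test. The median log2 difference, Ly6Clo minus Ly6Chi, was 1.40 over the 10 genes and 0.03 over all genes tested.

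**Figure D1:**
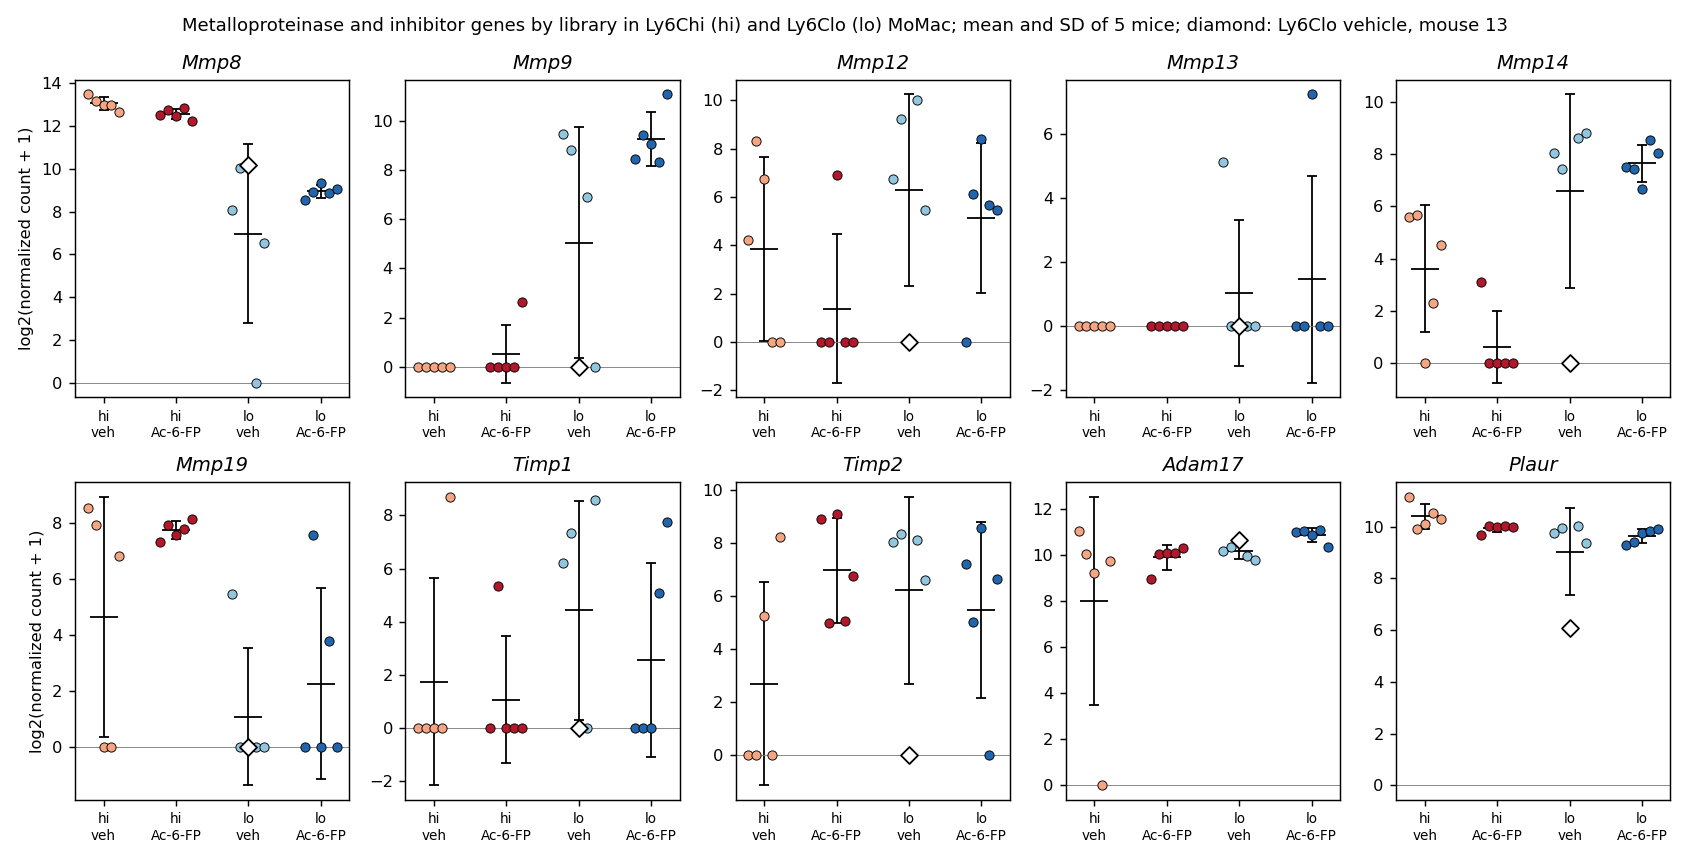
Each panel plots 1 gene as log2(normalized count + 1) in the 20 libraries, by subset (hi for Ly6Chi, lo for Ly6Clo) and exposure (veh for vehicle), with the mean and SD of 5 mice, and the diamond marks the Ly6Clo vehicle library of mouse 13. Mmp8 is high in all 10 Ly6Chi libraries, while Mmp9 is at 0 in 9 of them and Mmp13 in all 10.

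Mmp8, the neutrophil-type collagenase, was the gene with the largest fall. In Ly6Chi MoMac it was listed at 11430, 9181, 8127, 8078 and 6345 normalized counts in vehicle mice 11 to 15 and at 5789, 6850, 5710, 7254 and 4795 in Ac-6-FP mice 16 to 20. In Ly6Clo MoMac it was at 272, 1032, 1171, 0 and 91.7 in mice 11 to 15 and at 371, 488, 648, 466 and 522 in mice 16 to 20. Every Ly6Chi library thus lay above every Ly6Clo library, a separation shown by 1.4% of the genes tested. The log2 difference was -4.85 (SE 0.78, adjusted p = 0.00284, limma), it was negative in 10 of 10 mice (two-sided exact permutation test over sign flips, p = 0.00195, the smallest this design allows), an agreement in sign found in 3.85% of all genes, and the call was kept without any 1 mouse. The Ly6Clo library of mouse 14, at 0, widened the difference, which was -3.98 without this mouse (adjusted p = 0.0199 at most over the mice left out in turn).

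Mmp9 went the other way. It was at 0 in 9 of the 10 Ly6Chi libraries and at 5.22 normalized counts (7 reads) in the Ac-6-FP library of mouse 20. In Ly6Clo MoMac it was at 707, 450, 0, 118 and 0 in vehicle mice 11 to 15 and at 348, 681, 531, 322 and 2159 in Ac-6-FP mice 16 to 20. The Ly6Clo library was the higher one in 8 mice, and both libraries were at 0 in mice 13 and 15. Against the 3-read floor of the Ly6Chi vehicle libraries (mean 2.88), the Ly6Clo vehicle mean of 255 ± 313 (SD, n = 5) was at least 88.7-fold higher, and at least 49.4-fold without mouse 11, which held the highest vehicle value. The log2 difference was 6.89 (SE 1.03, adjusted p = 0.00160, limma; exact permutation p = 0.00781), and the call was kept without any 1 mouse, although the gene entered the test through its Ly6Clo libraries.

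Mmp14 was low in Ly6Chi MoMac, at 47.8, 49.2, 0, 3.87 and 21.8 in mice 11 to 15 and at 7.49, 0, 0, 0 and 0 in mice 16 to 20. In Ly6Clo MoMac it was at 263, 171, 0, 387 and 449 with vehicle and at 182, 173, 100.41, 368 and 263 with Ac-6-FP. Apart from mouse 13, at 0 in both subsets, every Ly6Clo library exceeded every Ly6Chi library. The log2 difference was 4.99 (SE 0.74, adjusted p = 0.00153, limma), positive in 9 mice (exact permutation p = 0.00391), and was called without any 1 mouse.

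Mmp19 was above 0 in 8 Ly6Chi libraries, at 366, 239, 0, 0 and 111 in mice 11 to 15 and at 158, 241, 188, 219 and 279 in mice 16 to 20. In Ly6Clo MoMac 7 libraries were at 0, and the others were at 43.2 (mouse 11), 190 (mouse 17) and 12.9 (mouse 19). It was lower in the Ly6Clo library of 8 mice and at 0 in both libraries of mice 13 and 14. The log2 difference of -4.51 (SE 1.06, adjusted p = 0.0304, limma; exact permutation p = 0.00781) was less firm than the preceding ones, since the adjusted p rose above the threshold, to at most 0.103, when mouse 11, 12, 15, 16, 18, 19 or 20 was left out, and was 0.138 with edgeR on the recovered reads.

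Among the remaining metalloproteinases, Mmp12 was above 0 in 4 Ly6Chi libraries (17.7 to 318) and in 8 Ly6Clo libraries (42.5 to 1045). Its log2 difference was 3.09 (SE 1.37, adjusted p = 0.273, limma), positive in 8 mice and negative in mouse 13, without which the adjusted p was 0.0447. With DESeq2 on the recovered reads and all mice the adjusted p was 0.000667. Mmp13 was at 0 in all 10 Ly6Chi libraries and in 8 Ly6Clo libraries, and was at 34.0 in mouse 11 and 151 in mouse 18, 1 mouse of each exposure. Its Ly6Clo mean of 18.5 ± 47.7 (SD, n = 10) was at least 7.01-fold above the Ly6Chi floor, a bound that rests on these 2 libraries, and the adjusted p was 0.479 (limma).

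The inhibitor genes did not separate the subsets. Timp1, which inhibits most secreted metalloproteinases, was above 0 in 2 Ly6Chi libraries (39.3 and 417) and in 5 Ly6Clo libraries (32.6 to 380), with a log2 difference of 2.09 (SE 1.28, adjusted p = 0.444, limma). Timp2 was above 0 in 7 Ly6Chi libraries (31.1 to 550) and in 8 Ly6Clo libraries (31.4 to 378). Its mean log2 difference was positive, 1.02 (SE 1.36, adjusted p = 0.708, limma), although it was lower in Ly6Clo MoMac in 6 of 10 mice. The difference was 2.12 when mouse 13 was left out and 0.42 when mouse 12 was. The largest positive differences were those of vehicle mice 11, 12 and 14, whose Timp2 was at 0 in Ly6Chi and at 263, 322 and 276 in Ly6Clo MoMac. DESeq2 gave Timp2 an adjusted p of 0.0423.

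Adam17 and Plaur were well above the floor in nearly all libraries. Adam17 ranged from 0 (vehicle mouse 14) to 2070 (median 1056) in Ly6Chi and from 864 to 2144 (median 1460) in Ly6Clo MoMac, and was higher in the Ly6Clo library of 9 of 10 mice. The log2 difference was 1.56 (SE 0.86, adjusted p = 0.385, limma; exact permutation p = 0.0254), and 0.59 without mouse 14. Plaur ranged from 830 to 2301 (median 1047) in Ly6Chi and from 66.8 to 1038 (median 872) in Ly6Clo MoMac, and was lower in the Ly6Clo library of 9 of 10 mice. Its log2 difference was -0.83 (SE 0.34, adjusted p = 0.236, limma; exact permutation p = 0.00391), and -0.50 without mouse 13, which held the lowest value. When the count of detected genes entered the fit, the adjusted p of Plaur was 0.0158.

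**Figure D2:**
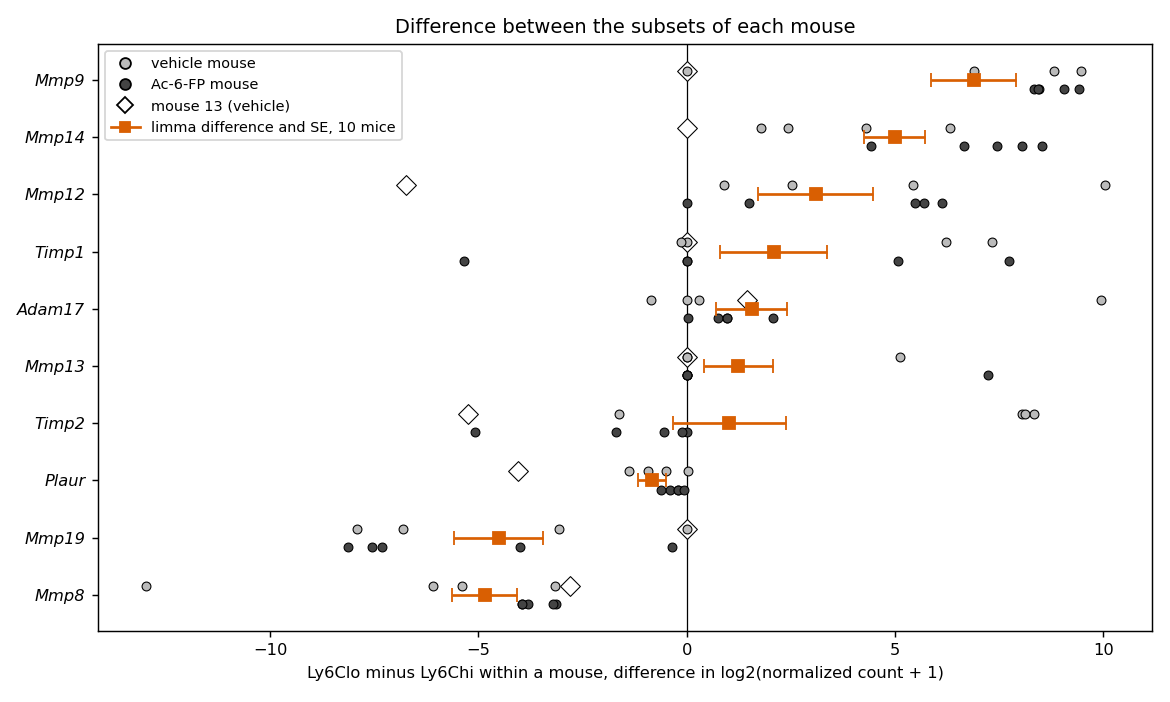
Points show, for each gene, the difference in log2(normalized count + 1) between the Ly6Clo and the Ly6Chi library of each of the 10 mice, with the limma difference and its SE as squares, and the diamond marks mouse 13. All 10 Mmp8 points lie below 0, and no Mmp9 or Mmp14 point does, while the Timp2 points lie on both sides.

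Levels were compared between genes per kilobase of annotated exon (union of exons, GENCODE M21), a rough scale since reads were counted on constitutive regions only. In Ly6Chi MoMac, Mmp8 came first with 3033 ± 802 normalized counts per kilobase (SD, n = 10), followed by Plaur with 460 ± 162 and Adam17 with 134 ± 76.0. These levels were further apart than their SDs. The next genes, Timp1 (51.4 ± 148), Mmp19 (51.0 ± 33.1), Timp2 (39.4 ± 54.0) and Mmp12 (7.72 ± 14.2 per kilobase, SD), could not be ordered beyond their spread. Timp1 was at 0 in 8 of these libraries, and its mean rested mainly on vehicle mouse 15. Mmp14 (2.18), Mmp9 (0.15) and Mmp13 (0) had the lowest means, which lay within the SDs of Timp1, Timp2 and Mmp12. In Ly6Clo MoMac the order was Plaur with 294 ± 109, Adam17 with 214 ± 66.8, Mmp8 with 209 ± 153 and Mmp9 with 150 ± 177 normalized counts per kilobase (SD, n = 10), then Timp1 (96.8), Timp2 (41.4), Mmp14 (39.5), Mmp12 (31.6), Mmp19 (6.95) and Mmp13 (6.91). No neighbours in this second order differed by more than their SDs. Both orders pool the exposures. In Ly6Clo MoMac Mmp9 was at 72.1 with vehicle, below Timp1 (138), and at 228 with Ac-6-FP, above Mmp8 (206).

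Markers of other cells also differed between the subsets. Of the 7 neutrophil-defining genes (Ly6g, Retnlg, Cxcr2, Camp, Ngp, Ltf, Cd177), 4 were higher in Ly6Clo MoMac, with log2 differences of 9.72 (Retnlg), 7.27 (Ngp), 6.95 (Camp) and 6.19 (Cxcr2), and Cd177 was lower (-3.17). Camp lost its call without any 1 of 7 mice (adjusted p of at most 0.0781), and Cxcr2 with edgeR (0.0884). Ly6g, the antigen of the gate, stood at 0 to 16.2 in Ly6Chi and 0 to 192 in Ly6Clo libraries and was not called. Of the 4 further genes of the full list of 11 neutrophil markers, none was called, with log2 differences of -3.53 (Lcn2, lower in 9 mice), -2.33 (Csf3r, lower in 8), -0.94 (S100a8) and 0.39 (S100a9). The summed level of the 7 defining genes ran from 3156 to 11812 in Ly6Chi libraries, mostly Cd177, and from 9680 to 125952 in Ly6Clo libraries, and that of all 11 from 9560 to 16834 and from 10631 to 134247. Cxcr2, Camp and Ngp were at 0 in all Ly6Chi vehicle libraries. Among Ly6Clo libraries, mouse 20 had both the highest sum and the highest Mmp9 (2159), and mouse 15 the lowest sum and Mmp9 at 0, while mouse 17 had the second lowest sum (19799) with Mmp9 at 681 and mouse 13 a sum of 40248 with Mmp9 at 0. Mmp8 was lower in Ly6Clo MoMac, as was Cd177.

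**Figure D3:**
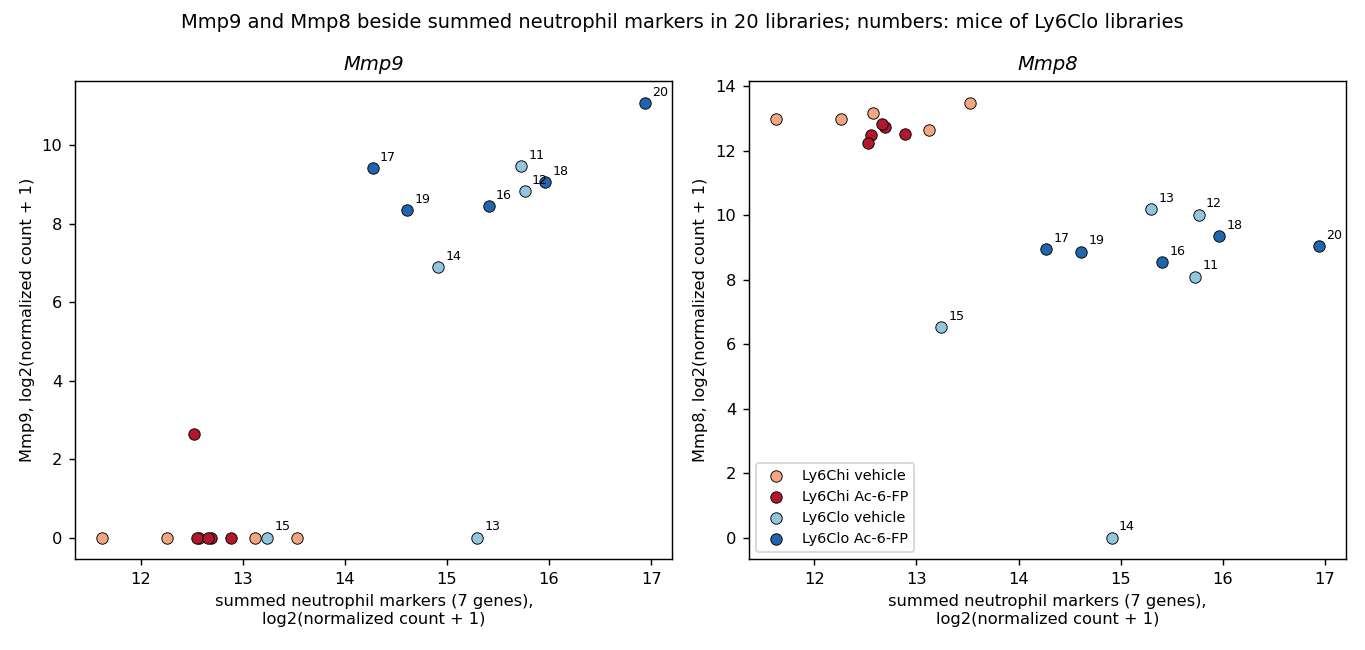
Each point is 1 library, with the summed level of 7 neutrophil-defining genes on the x axis and Mmp9 (left) or Mmp8 (right) on the y axis, both as log2(normalized count + 1), and numbers name the mice of the Ly6Clo libraries. The Ly6Clo libraries of 9 mice lie at higher marker sums than every Ly6Chi library and that of mouse 15 lies among them, and the libraries with the highest Mmp8 are all Ly6Chi.

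The summed 7 dendritic cell markers ran from 83.8 to 535 in Ly6Chi and from 8833 to 22148 in Ly6Clo libraries, with 4 genes called higher (Ccr7, Itgax, Cd209a and Flt3). The 6 T or NK cell markers in the table summed to 0 to 812 and 39540 to 86104, with Gzma, Klrb1c, Ncr1 and Nkg7 called higher and Cd3e at 0 to 11.1. In Ly6Clo libraries this sum had a median of 54710, against 46164 for the 8 monocyte and macrophage markers. In the Ly6Clo library of mouse 13 these sums were 67257 and 21647. Lower sums were found for endothelial markers (31.9 to 338 against 0 to 4451; Clec4g called higher), hepatocyte markers (399 to 1201 against 1018 to 3060; Apoa1), Kupffer cell markers (0 to 281 against 0 to 899; Marco) and B cell markers (0 to 45.6 against 0 to 446; Cd79a). Of these calls, that of Clec4g was lost without any 1 of 5 mice (adjusted p of at most 0.0651) and with edgeR (0.0991), that of Marco without any 1 of 7 mice (at most 0.105) and with edgeR (0.107), and that of Apoa1 without mouse 17 (0.0528). Stellate cell and myofibroblast markers summed to 0 to 968 in Ly6Chi and 0 to 306 in Ly6Clo libraries, with none of 3 tested genes called and Des, Lrat and Reln at 0 in all libraries. Of the marker genes called higher in Ly6Clo MoMac, Camp, Ngp, Cxcr2, Ccr7, Itgax, Ncr1 and Cd79a had Ly6Chi group means under 10 and passed the filter through their Ly6Clo libraries, so that these calls are not independent of it. The part of these other cells in the differences of Mmp8, Mmp9, Mmp14 and Mmp19 was not tested.

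The enzymes and partners that act with these genes were then examined between the subsets. Of the other 17 matrix metalloproteinases, 6 passed the filter and 0 were called, and of 4 further inhibitors (Timp3, Timp4, Reck, A2m), 2 passed and 0 were called. Among 9 tested genes of plasminogen activation, 1 was higher and 2 were lower in Ly6Clo MoMac. Serpinb2, an inhibitor of urokinase, rose from 14.4 ± 33.1 to 400.2 ± 432 normalized counts (SD, n = 10; log2 difference 5.92, adjusted p = 0.00336, limma). Anxa2 and S100a10, which together form a plasminogen receptor, fell from 33128 ± 2860 to 19117 ± 5273 and from 5710.2 ± 985 to 3417 ± 668 (SD, n = 10), with log2 differences of -0.85 and -0.75 (adjusted p = 0.000594 and 0.0143, limma), lower in 10 of 10 mice. The call of S100a10 was lost without mouse 15 or mouse 17 (adjusted p of at most 0.0520).

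Of 8 tested ADAM genes and ADAM17 partners, only Adam15 was called, lower in Ly6Clo MoMac in 10 of 10 mice (log2 difference -2.13, SE 0.55, adjusted p = 0.0487, limma), and this call was lost without any 1 of 8 mice or without the mouse as a block (adjusted p = 0.277). Tnf and Csf1r, whose proteins are known to be shed by ADAM17, were not called, with log2 differences of 2.87 (adjusted p = 0.308, limma) and 0.50 (adjusted p = 0.271). With DESeq2 on the recovered reads the adjusted p of Tnf was 0.000636, and with mouse 18 left out of the limma fit it was 0.0296.

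Among 9 cathepsins and cystatins, the lysosomal proteases and their inhibitors, 4 were higher and 1 was lower in Ly6Clo MoMac. Cst3, a secreted cathepsin inhibitor, rose in 10 of 10 mice from 30427 ± 3503 to 66036 ± 11271 normalized counts (SD, n = 10; log2 difference 1.11, SE 0.04, adjusted p = 4.84e-08, limma). Ctsb (0.55, adjusted p = 0.00219) and Ctsd (0.56, adjusted p = 0.0328) each rose in 8 of 10 mice, but Ctsb was not called with quantile normalization (adjusted p = 0.350), and Ctsd lost its call without any 1 of 9 mice or without the mouse as a block (adjusted p = 0.295). Ctsk, a collagenolytic protease, was at 0 in all 10 Ly6Chi libraries and above 0 in 5 Ly6Clo libraries (log2 difference 3.38, adjusted p = 0.0463), a call also lost without any 1 of 9 mice. As with Mmp9, it passed the filter on low values through its Ly6Clo libraries. Cstb, an intracellular inhibitor, was lower in 10 of 10 mice (-0.48, adjusted p = 0.0223), and its call was lost without mouse 17 or mouse 19 (adjusted p of at most 0.0531).

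Of 10 tested metalloproteinase partners and collagen uptake genes, Mrc1, an endocytic collagen receptor, and Tgm2, a matrix cross-linking enzyme, were higher in Ly6Clo MoMac (log2 differences 4.58 and 3.07, adjusted p = 0.0423 and 0.00533, limma), and the matrix gene Fn1 was lower (-1.98, adjusted p = 0.0140). Mrc1, which also passed the filter through its Ly6Clo libraries, lost its call without any 1 of 7 mice and Fn1 without any 1 of 5. Bsg, an inducer of metalloproteinases, and Cd44, which docks Mmp9 at the cell surface, differed by -0.04 (SE 0.14) and -0.12 (SE 0.21) on the log2 scale. Of 4 Fos family genes in the table, 0 were called, Fos itself at 40466 ± 15140 in Ly6Chi and 34005 ± 18436 in Ly6Clo MoMac (SD, n = 10; adjusted p = 0.143).

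**Figure D4:**
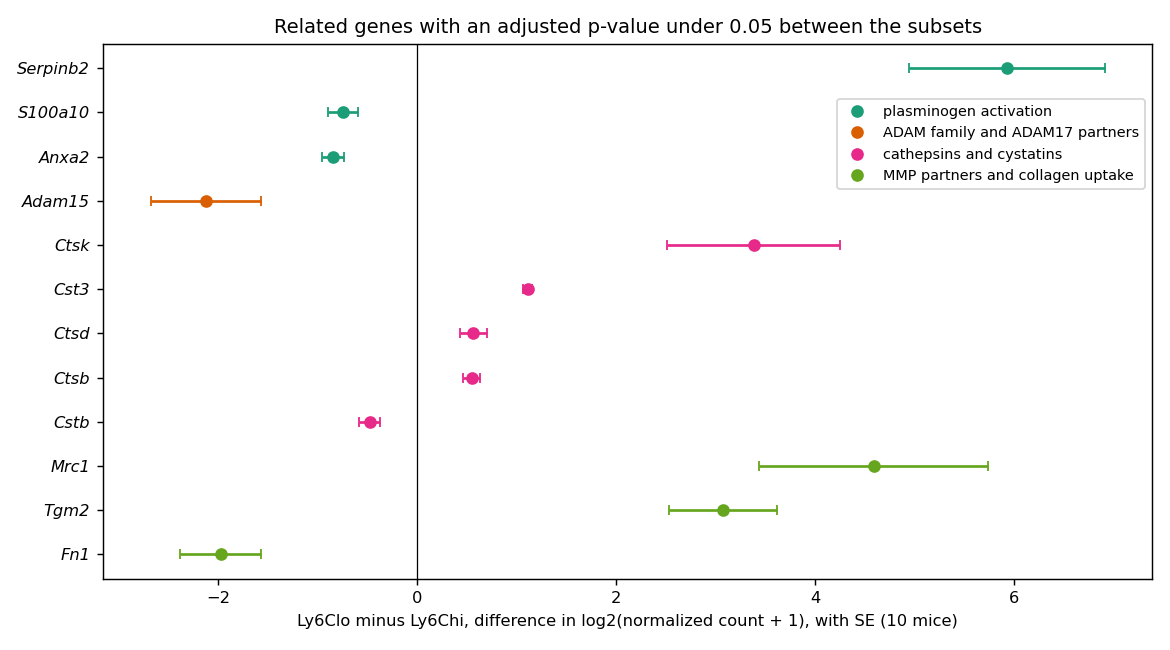
Points give the log2 difference, Ly6Clo minus Ly6Chi, with its SE over 10 mice for the 12 genes of 4 related gene lists whose adjusted p-value was under 0.05. Serpinb2, Mrc1, Ctsk and Tgm2 lie furthest to the right, and Adam15 and Fn1 furthest to the left.

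The second question was whether Ac-6-FP changed these genes within a subset. In Ly6Chi MoMac 0 of the 10 genes were called, against 13 of 17248 genes (0.0754%), and in Ly6Clo MoMac 0 of 10 against 9 (0.0522%) (limma, 5 against 5 mice). At an unadjusted p-value under 0.05, 3 of the 10 genes were past in Ly6Chi (Mmp8, Mmp14, Timp2) and 1 in Ly6Clo MoMac (Adam17), beside 8.73% and 9.31% of all genes. DESeq2 and edgeR on the recovered reads also called 0 of the 10 in either subset. The median log2 change over all genes was 0.35 in Ly6Chi and 0.91 in Ly6Clo MoMac, and Ac-6-FP libraries held more detected genes, so changes are read against these shifts.

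In Ly6Chi MoMac, Mmp8 was at 8632 ± 1866 with vehicle and 6080 ± 980 with Ac-6-FP (SD, n = 5), a log2 change of -0.49 (SE 0.17, limma adjusted p = 0.534; two-sided exact permutation p = 0.0238). All 5 Ac-6-FP libraries were below the vehicle mean, but the groups overlapped, as 7254 and 6850 exceeded the lowest vehicle value. Plaur changed by -0.46 (SE 0.22, adjusted p = 0.602; exact permutation p = 0.0476), from 1423 ± 526 to 988 ± 90.4 normalized counts (SD, n = 5). Mmp14, above 0 in 4 vehicle libraries and 1 Ac-6-FP library, changed by -2.99 (SE 1.21, adjusted p = 0.543; exact permutation p = 0.0873).

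Timp2 and Mmp19 gave the largest positive changes in Ly6Chi MoMac. Timp2 was at 0, 0, 37.1, 0 and 297 in vehicle mice and at 477, 31.1, 550.4, 32.7 and 109 in Ac-6-FP mice, so that it was detected in 2 of 5 and 5 of 5 libraries. The log2 change was 4.28 (SE 1.87, adjusted p = 0.566, limma; exact permutation p = 0.0714), with overlapping groups. Mmp19 was detected in 3 of 5 vehicle and 5 of 5 Ac-6-FP libraries (log2 change 3.09, SE 1.83, adjusted p = 0.651). Adam17 changed by 1.89 (SE 1.92), and by -0.11 without vehicle mouse 14, where it was at 0. Mmp12 (-2.48, SE 2.11), Timp1 (-0.68, SE 1.93) and Mmp9 (0.53, SE 0.50) changed by less than 2 SE, and Mmp13 was at 0 in both groups.

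In Ly6Clo MoMac, Adam17 was at 1138, 1292, 1620, 988 and 864 in vehicle mice and at 2060, 2066, 1849, 2144 and 1300.5 in Ac-6-FP mice. All 5 Ac-6-FP libraries were above the vehicle mean and 4 of them above every vehicle library. The log2 change was 0.69 (SE 0.22, adjusted p = 0.528, limma; two-sided exact permutation p = 0.0159), below the median change of 0.91 of all genes. Without mouse 13 the Adam17 change was 0.81, which is not set against that median, since the median was taken with this mouse. Mmp9 was above 0 in 3 of 5 vehicle and 5 of 5 Ac-6-FP libraries, at 255 ± 313 and 808 ± 769 (SD, n = 5), with a log2 change of 4.23 (SE 2.01, adjusted p = 0.545; exact permutation p = 0.0952) and 2.97 without mouse 13. The summed neutrophil markers of these libraries were 9680 to 55592 with vehicle and 19799 to 125952 with Ac-6-FP, and their part in the Mmp9 values was not tested.

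The other changes in Ly6Clo MoMac were within 2 SE. Mmp8 changed by 1.98 (SE 1.74), with means of 513 and 499 normalized counts, since the log2 change followed the vehicle library at 0 (mouse 14), without which it was 0.23. Mmp14 changed by 1.06 (SE 1.58) and by -0.58 without mouse 13, and Plaur by 0.61 (SE 0.71) and by -0.13 without mouse 13. Timp1 (-1.87, SE 2.36), Mmp12 (-1.15, SE 2.12), Timp2 (-0.73, SE 2.05), Mmp13 (0.42, SE 1.65) and Mmp19 (1.18, SE 1.75) had groups in which 0 and values above 0 were mixed.

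**Figure D5:**
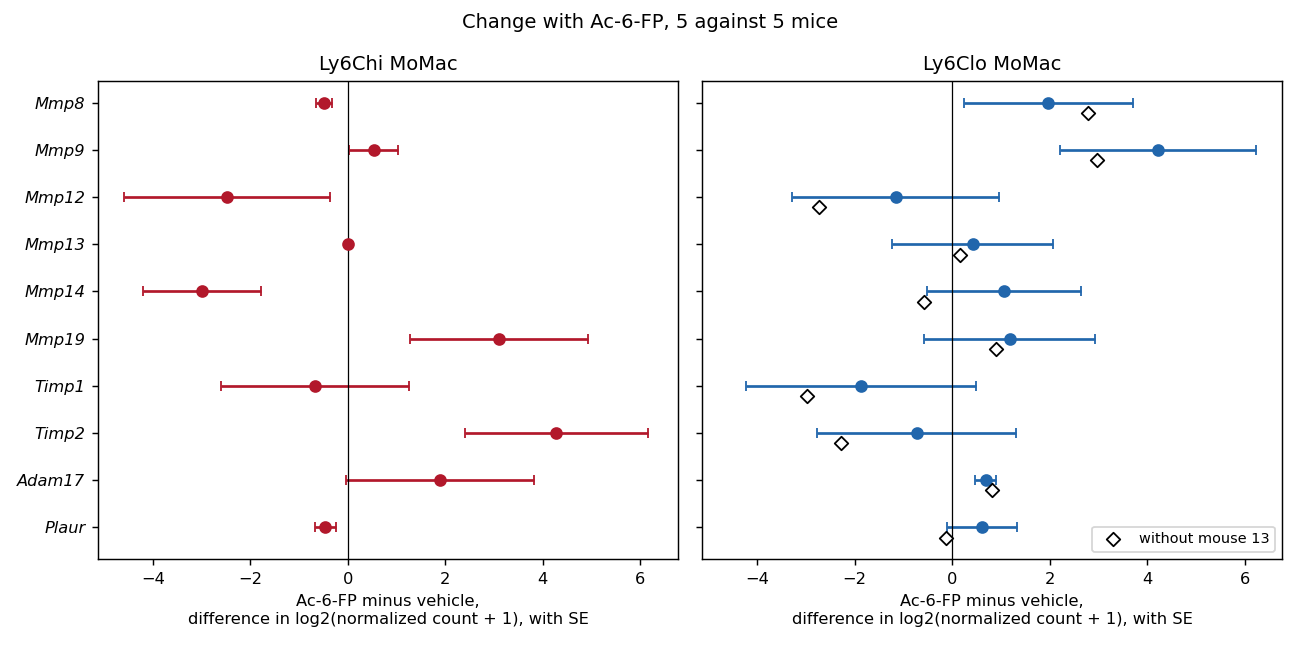
Points give the log2 change with Ac-6-FP and its SE for each gene, 5 against 5 mice, in Ly6Chi (left) and Ly6Clo MoMac (right), and diamonds the change without mouse 13. The intervals are widest for genes listed at 0 in part of the libraries, and the diamonds of Mmp14 and Plaur lie on the other side of 0 from their points.

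Whether the change with Ac-6-FP differed between the subsets was tested on the within-mouse subset differences, those of 5 Ac-6-FP mice against those of 5 vehicle mice. Of the 10 genes 0 were called, and 0 of 17248 genes (0%) (limma, n = 10 mice), with 840 genes (4.87%) at an unadjusted p-value under 0.05 and counts of 0 with edgeR and 171 with DESeq2. The largest differences, Ly6Clo minus Ly6Chi, were those of Timp2 (-5.01, SE 2.71), Mmp14 (4.06, SE 1.48) and Mmp9 (3.70, SE 2.05), each with an adjusted p of 0.830. For Mmp14 the two-sided exact permutation p was 0.0159, and for Timp2 it was 0.151. DESeq2 called 1 of the 10 genes, Timp2 (log2 difference -9.62, adjusted p = 0.0163).

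A criterion after that of the study divides each Ac-6-FP library by the vehicle mean of its subset and compares both ratios over the 5 Ac-6-FP mice, so that the spread between vehicle mice does not enter. It was applied to the 17248 genes tested here, whereas the study kept genes by their level over intergenic background, so that counts over all genes are not comparable with the study's. By this criterion (fold change of 1.5 or more and an unadjusted p no higher than 0.05) 6 of the 10 genes passed, Mmp8, Mmp9, Mmp14 and Plaur toward Ly6Clo and Timp2 and Adam17 toward Ly6Chi, against 24.3% of all genes tested (2807 toward Ly6Clo and 1378 toward Ly6Chi). With mouse 13 left out of the Ly6Clo vehicle mean, 5 of the 10 passed, without Plaur, against 20.1% of all genes, whose balance turned (1495 toward Ly6Clo and 1970 toward Ly6Chi). The log2 difference of Plaur was then 0.34, below the fold required, and that of Mmp8 was 3.28. With mouse 14 left out of the vehicle means of both subsets, 5 of the 10 passed, against 25.2% of all genes, since Adam17 no longer did and turned direction (0.74, against -1.20 with all mice), while Mmp8 still passed at 0.75, against 2.47. Mouse 14 held the Ly6Chi library with Adam17 at 0 and the Ly6Clo library with Mmp8 at 0.

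In the related lists, 0 genes were called with Ac-6-FP in either subset or in the difference between them (limma). Groups that did not overlap were found for 3 of these genes, all in Ly6Chi MoMac and higher with Ac-6-FP, beside 1.35% of all genes, and for none in Ly6Clo MoMac, beside 1.5%. They were Mmp24, a membrane-anchored metalloproteinase, at 36.5 ± 25.7 with vehicle and 152 ± 46.4 with Ac-6-FP (SD, n = 5; log2 change 2.87, SE 1.10), Ctsd at 4946 ± 1810.0 and 7974 ± 1749 (0.77, SE 0.31), and Tnfrsf1b, a TNF receptor gene, at 105 ± 119 and 376 ± 59.9 (4.18, SE 1.72). Their adjusted p-values were 0.543, 0.543 and 0.544 (limma), with a two-sided exact permutation p of 0.00794 for each, the smallest this design allows, and these genes were chosen for their values. The tested genes numbered 6 in the list of Mmp24, 9 in that of Ctsd, 7 in that of Tnfrsf1b and 2, 9, 8, 10 and 4 in the other lists. Among the cell type markers, Apoa1 in Ly6Chi (log2 change 1.57) and Cd3d in Ly6Clo MoMac (5.18) were also higher with Ac-6-FP without overlap. Neither was called (limma adjusted p = 0.544 and 0.207), and their part in the changes above was not tested.

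For the genes with a mean of at least 100 in a group, the genes of most similar pattern were sought by Pearson's r of log2 values centred within the 4 groups. The 19 libraries other than the Ly6Clo library of mouse 13 were used. The closest were Serpinb10 (r = 0.976) and A530064D06Rik (0.953) for Mmp8, Tubb2a (0.910) and Farsb (0.866) for Mmp9, Bbx (0.858) and Gnas (0.832) for Mmp14, and Tln1 (0.838) and Ptprj (0.816) for Mmp19. For Adam17 they were Copg2 (0.961) and the combined entry Klkb1 // Cyp4v3 (0.957), and for Plaur Chmp5 (0.712) and Ppid (0.692). Timp1 was closest to Daglb (0.785) and Ndufa10 (0.775), Timp2 to Hibch (0.808) and Slc50a1 (0.794), and Mmp12 to Psmd11 (0.777) and Sms (0.745). These are descriptions over libraries that differ in depth, and high values such as those of Mmp8 and Adam17 can rest on 1 library at 0.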

How the data were processed

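RNA was extracted from about 30000 sorted cells per library, libraries were made with a low-input kit and 75-base reads were sequenced. According to the methods, the authors aligned reads with STAR 2.4.0 to mm10, counted them on the constitutive regions of FAST DB genes and divided the counts by DESeq2 size factors. The deposited values are thus signal values (normalized counts), from which whole reads were recovered (100% of values above 0, tolerance 0.006). Groups and mice follow the sample titles.

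Log2(normalized count + 1) of 17248 genes (group mean of at least 10) was tested with limma 3.58.1 in R 4.3.3. The subset difference and the interaction had the mouse as a block, and exposures were compared inside each subset (5 mice against 5). Benjamini-Hochberg adjusted p-values under 0.05 over all genes were called. Exact permutation tests, two-sided, used sign flips over 10 mice or relabelling of 5 against 5 (smallest p 0.00794). Both libraries of a number come from 1 liver. Their residuals correlated with a median of 0.034 (range 0.003 to 0.250), against -0.003 (range -0.114 to 0.129, 90 pairs) between libraries of different mice. These ranges overlap, so the values show little likeness within a mouse. edgeR 4.0.16 and DESeq2 1.42.0 on recovered reads were alternatives. The fits were tested on simulated counts with changes in well-expressed genes only, no mouse effect and no added values at 0. That test does not cover genes at 0 in part of the libraries. Named were the 10 genes, the called genes of related lists (at most 8 per list) and some further genes of these lists. The 3 most abundant genes of each list, planned to be named, are not all given. Genes and lists were chosen with earlier results of these data known, and a list of AP-1 genes was read for 4 of 7 entries, the others being not analysed here. One entry of the ADAM17 substrate list is not reported here. Protein sequences were not used here. P-values measure the spread between mice, and floors of 3 reads cover counting error only.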

Additional observations from a re-analysis of the deposited data

Results flagged for a closer look

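Of 37 sets of 5 libraries (1 gene in 1 group, values not all equal), 15 held a library whose gap to its nearest neighbour exceeded 0.71 of the whole range (Dixon's criterion). The chance rate of this criterion, about 1 of 20 sets, holds for normally distributed values. A set whose other libraries are all at 0 exceeds it by construction, so 15 of 37 cannot be read against that rate. In most of the 15 sets, all or most of the other libraries were at 0. Among Ly6Chi libraries these were Mmp9 in Ac-6-FP mouse 20 (5.22 normalized counts), Mmp12 in Ac-6-FP mouse 18 (118), Mmp14 in Ac-6-FP mouse 16 (7.49), Timp1 in vehicle mouse 15 (417) and in Ac-6-FP mouse 17 (39.3), and Timp2 in vehicle mouse 15 (297, next 37.1). Low values belonged to Ac-6-FP mouse 16, with Adam17 at 491 (next 1057) and Plaur at 830.0 (next 1003). Among Ly6Clo libraries they were Mmp13 and Mmp19 in vehicle mouse 11 (34.0 and 43.2), Mmp12 and Mmp13 in Ac-6-FP mouse 18 (334 and 151), Mmp19 in Ac-6-FP mouse 17 (190, next 12.9), and Mmp9 and Timp1 in Ac-6-FP mouse 20 (2159, next 681, and 212, next 32.6). What set these libraries apart was not tested.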

How the results depend on the processing

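Between the subsets, the number of the 10 genes called was 4, and 3 to 6 under the alternatives. Without a replicate block (no pairing by mouse) it was also 4, with 987 in place of 900 genes called in all, and the block changed no call of the 10 genes. The count of all genes was 1848 with a covariate for genes detected (751 higher and 1097 lower in Ly6Clo MoMac, against 588 and 312), 511 with edgeR, 1865 with DESeq2, and 645 to 1125 with 1 mouse left out, the highest without mouse 13. Mmp19 was not called with a pseudocount of 0.1, without a filter or with edgeR.

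For Ac-6-FP in Ly6Chi MoMac, 13 genes were called, and 5 without a filter, 4 with a filter at a mean of 100, 0 with quantile normalization, the covariate or edgeR, 153 with DESeq2, and 0 to 133 with 1 mouse left out (133 without mouse 11). In Ly6Clo MoMac 9 were called, and 2 with a pseudocount of 10, without a filter, with the filter at 100 or with the covariate, 0 with quantile normalization or edgeR, 113 with DESeq2, and 0 to 103 with 1 mouse left out (103 without mouse 11). For the difference between subsets the count of 0 became 2 with the filter at 100, 1 with quantile normalization, 3 without the replicate block, 171 with DESeq2 and 0 to 4 with 1 mouse left out. By the study's criterion it was 4185, 3465 with mouse 13 left out of the Ly6Clo vehicle mean and 4351 with mouse 14 left out of both vehicle means, settings chosen after seeing the data. Of the 10 genes, 1 was then called with DESeq2, and 6, 5 and 5 by the criterion, and 0 under every other setting.

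Changes with Ac-6-FP that turned direction were not past the threshold in any setting, except the Adam17 difference between subsets, which passed the study's criterion with all mice and without mouse 13 and was 0.74, not past it, without mouse 14. In Ly6Clo MoMac these were Mmp8 (-0.063 with edgeR, -0.023 with DESeq2), Mmp14 (-1.01 with the covariate, -0.27 with edgeR, -0.22 with DESeq2) and Plaur (-0.18 with the covariate), in Ly6Chi MoMac Mmp9 (-0.21 with quantile normalization), and in the difference between subsets Mmp12 (-0.19 with quantile normalization, -0.25 by the criterion without mouse 13) and Mmp13 (-0.22 with edgeR). With 1 mouse left out, ranges that crossed 0 were, in Ly6Chi MoMac, -1.74 to 1.07 (Timp1) and -0.11 to 2.64 (Adam17). In Ly6Clo MoMac they were -2.73 to 0.13 (Mmp12), -1.03 to 1.45 (Mmp13), -0.58 to 1.62 (Mmp14), -0.15 to 2.27 (Mmp19), -2.28 to 0.65 (Timp2) and -0.13 to 0.86 (Plaur). In the difference between subsets they were -0.97 to 3.22 (Mmp12), -1.03 to 1.45 (Mmp13), -2.75 to 0.52 (Timp1) and -1.96 to 0.74 (Adam17). The cause was not tested. Genes near 0 in part of the libraries limit what 5 mice per group can show.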

Other observations

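Further genes of the family, several at 0 in many libraries, were not called between the subsets. Mmp25, a membrane-anchored metalloproteinase known from leukocytes, was at 0 in 8 of 10 Ly6Chi libraries and in 5 of 10 Ly6Clo libraries, where it reached 418 normalized counts (log2 difference 2.89, SE 0.97, limma adjusted p = 0.136). Mmp7, or matrilysin, was at 0 in all 10 Ly6Chi libraries and in 7 of 10 Ly6Clo libraries, with a highest value of 257 (adjusted p = 0.327). Mmp24 was detected in 9 Ly6Chi and 7 Ly6Clo libraries, at 94.3 ± 70.4 and 77.0 ± 71.4 normalized counts (SD, n = 10; adjusted p = 0.485). Reck, a membrane-anchored inhibitor of metalloproteinases, was above 0 in 1 Ly6Chi and 5 Ly6Clo libraries, with a highest value of 99.2 (adjusted p = 0.189). Timp3, an inhibitor held in the matrix and known to block Adam17, was above 0 in 3 Ly6Chi and 4 Ly6Clo libraries (adjusted p = 0.708), and A2m was at 0 throughout. Adam8, a protease of leukocytes, reached 2944 in Ly6Clo and 681 in Ly6Chi MoMac, with a log2 difference of 3.31 (SE 1.29, adjusted p = 0.206), and was called with DESeq2 (adjusted p = 0.000824), with the covariate for genes detected and without mouse 13 (0.0111).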
